A study of Mus musculus with 38 samples.

Results

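The cytosolic ribosomal protein genes are the genes for the proteins of the large and the small subunit of the cytosolic ribosome. They were taken from the deposited count table by symbol alone (Rpsa, Rplp0, Rplp1, Rplp2, and Rpl or Rps followed by a number, with the paralog endings a, x, l, l1 and al), without the pseudogenes that carry a -ps ending, which gave 87 of 54165 genes. By symbol, 51 belonged to the large subunit, 3 to the P-stalk of the large subunit and 33 to the small subunit. The annotation gives 4 of them (Rpl32l, Rpl6l, Rps12l1 and Rps4l) as processed pseudogenes and the other 83 as protein-coding, and 4 of the 87 lay on the X chromosome (Rpl10, Rpl36a, Rpl39 and Rps4x). The symbols were matched without any measured value.

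Poly(A) RNA of the prefrontal cortex (PFC) and of the hypothalamus was sequenced in adult FVB/NJ mice. The study asked whether a raised dose of Ube3a, which encodes a ubiquitin ligase, acts differently in males and females. All Ube3a2X mice (Ube3a2x in the labels) were homozygous for a Ube3a transgene, and their WT littermates carried none. The PFC was represented by 20 libraries, 5 per sex and genotype, and the hypothalamus (Hypo) by 18 libraries, 4 from WT females, 4 from WT males, 5 from Ube3a2X females and 5 from Ube3a2X males. The libraries came from 25 mice, of which 13 gave both tissues, and each library is named here by its group and mouse number. Poly(A)-selected, strand-specific libraries were made from 500 ng of RNA in the PFC and 1000 ng in the hypothalamus, and the tissues were extracted with different column kits, so that tissue, RNA input and kit cannot be told apart.

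Ribosomal proteins are made in near-equal amounts in every cell, assembled with ribosomal RNA in the nucleolus and exported as subunits. Their mRNAs are short and abundant. Many of them start with a C followed by a run of pyrimidines, the 5′ terminal oligopyrimidine (TOP) sequence, through which the mTORC1 kinase pathway adjusts their translation. Some members have paralogs with their own expression pattern, such as Rpl22l1 beside Rpl22.

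Start-site sequences are shown for 5 members whose tissue difference is described further on, to let the reader see which begin with such a pyrimidine run. These 5 are the Rpl22 pair, and Rps6, Rps15a and Rpl10, which were called in every fit of that difference. Each line gives 10 bases before and 15 bases from the RefSeq transcription start (GRCm38.p6), read in the direction of the gene, with capitals for a C followed by at least 4 pyrimidines that begins within 3 bases of the listed start.
Rps6, chr4:86857353-86857377, minus strand: gaagtcgggcCTCTTTTTCgtgacg
Rps15a, chr7:118116133-118116157, minus strand: tttctgccatCTTCCCTCgccggtg
Rpl22l1, chr3:28805498-28805522, plus strand: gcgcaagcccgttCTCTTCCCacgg
Rpl22, first start, chr4:152324426-152324450, plus strand: cttctggaatgttccagctcccact
Rpl22, second start, chr4:152325716-152325740, plus strand: cctgggaaaagcaatagctggccga
Rpl10, chrX:74270806-74270830, plus strand: tacagtggaagataggccgcctata
Rps6, Rps15a and Rpl22l1 have a run that begins within 3 bases of the listed start, and neither listed start of Rpl22 nor that of Rpl10 does. Where the mRNAs begin in these tissues was not measured, so a missing run at a listed start does not show that the mRNA lacks it.

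A RefSeq promoter window of 300 bases (250 before to 50 after the start) was found for 64 of the 87 members, 10 of them with more than 1 start, and each gene was counted once if any of its starts held the letters. A C at the start base with 4 pyrimidines after it was present in 14 members (21.9%) and in 3.01% of all 27025 genes in the promoter table. When the run was allowed to begin up to 3 bases away, a width set after the sequences had been seen, the shares were 40.6% and 13.5%. On either strand of the window, CTTTCC was found in 53.1% of members and 29.3% of all genes, CCGGAAG in 39.1% and 9.93%, AAGATGGC in 9.38% and 3.19%, and TATAAA in 12.5% and 15.7%. These are matches of letters, and the members were not selected by them.

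Libraries held 36887511 to 69142160 counted reads in the PFC and 39048341 to 380819301 in the hypothalamus. Ube3a, the check of the genotype labels, lay between 110 and 354 CPM (a gene's counts relative to the library total after TMM scaling) in the 18 WT libraries and between 661 and 2150 CPM in the 20 Ube3a2X libraries, with no overlap. Tissue labels matched their markers. Slc17a7, the vesicular glutamate transporter of cortical neurons, lay between 1470 and 1980 CPM in the PFC and between 0.411 and 8.42 CPM in the hypothalamus. Pmch, the precursor of melanin-concentrating hormone, lay between 192 and 1200 CPM in the hypothalamus and below 0.6 CPM in the PFC, where its highest value was 0.556 CPM. RNA integrity numbers (RIN) were 6.7 to 8.9 in the PFC. In the hypothalamus they were 8.8 to 9.3, except for 6.8 in Hypo WT male 423. In pieces of tissue like these, fewer cells of a type and less RNA per cell cannot be told apart.

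Of the 87 members, 80 had at least 100 reads in every library. In 6 members (Rpl10l, Rpl32l, Rpl39l, Rpl3l, Rpl6l and Rps12l1), no library reached 1 CPM, and Rpl10l had a count of 0 throughout. After the removal of genes with under 100 reads in 2 or more libraries and of the 15% of genes with the lowest variance, 77 members were tested in the PFC, 81 in the hypothalamus and 78 in the fit of both tissues. Rpl15, Rpl6 and Rpl7l1 were lost in the PFC through the variance filter, and Rps4l through its low counts. Reads that could stem from the processed pseudogenes of this family are uncertain, since the treatment of reads with several matches was not given in the sources used here. The 319 -ps rows together held 0.007 to 0.038% of the counted reads.

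Levels per kilobase of annotated mRNA were led by the same genes in both tissues. These levels depend on the annotated length and on the treatment of reads with several matches, so comparisons between genes are approximate. Rps15, a protein of the small subunit, had the highest median level, at 441.1 CPM per kb in the PFC and 411.1 in the hypothalamus. It was followed by Rps29 (407.8) and Rpl9 (369.2) in the PFC, and by Rpl9 (381.1) and Rps29 (379.4) in the hypothalamus. The libraries of these 3 genes overlapped, so their order is not fixed by these data. The lowest levels were those of Rpl10l (0), Rpl39l (0.0281 in the PFC and 0.0429 in the hypothalamus) and Rpl3l (0.109 and 0.0827), paralogs known from testis (Rpl10l and Rpl39l) and from striated muscle (Rpl3l). Next above these 3 came Rps27l in the PFC (11.55 CPM per kb, 14.21 in the hypothalamus) and Rpl29 in the hypothalamus (12.28). mRNA lengths were available for 83 of the 87 members, with a median of 751 nucleotides. Rps20, with a coding length of 357 nucleotides, had an annotated mRNA length of 3706 nucleotides. Its median in the PFC was 76.7 CPM but 20.7 CPM per kb, so a low rank per kilobase can reflect the annotated length.

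Summed over the 87 genes, the ribosomal protein mRNAs took 0.590 to 1.144% of counted reads in the PFC (median 0.901%) and 0.736 to 3.019% in the hypothalamus (median 1.172%). The 5 PFC WT female libraries held 0.804, 1.063, 0.896, 1.026 and 0.590%, and the 5 PFC Ube3a2X female libraries 0.828, 0.832, 0.833, 0.989 and 0.652%. The PFC WT male libraries held 1.002, 0.905, 0.849, 0.928 and 0.869%, and the PFC Ube3a2X male libraries 1.018, 1.089, 0.789, 1.144 and 1.067%. All PFC groups overlapped. Of the hypothalamic groups, WT females held 1.164, 1.147, 1.171 and 3.019%, and Ube3a2X females 1.150, 1.173, 1.215, 1.230 and 1.153%. WT males held 1.189, 1.270, 1.295 and 1.196%, and Ube3a2X males 0.736, 1.163, 1.137, 1.202 and 1.111%. The hypothalamus was thus tight apart from a very high and a low library, Hypo WT female 471 and Hypo Ube3a2X male 238. In the PFC the lowest values were those of PFC WT female 397 and PFC Ube3a2X female 468. These 4 were singled out after their shares had been seen and are called the outlying libraries here, and without them the shares ran from 0.789 to 1.144% in the PFC and from 1.111 to 1.295% in the hypothalamus, a range of 1.17-fold against 4.1-fold with them. By Dixon's test on the gap to the nearest library of the group, only the hypothalamic ones of these 4 stood apart.

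**Figure D1:**
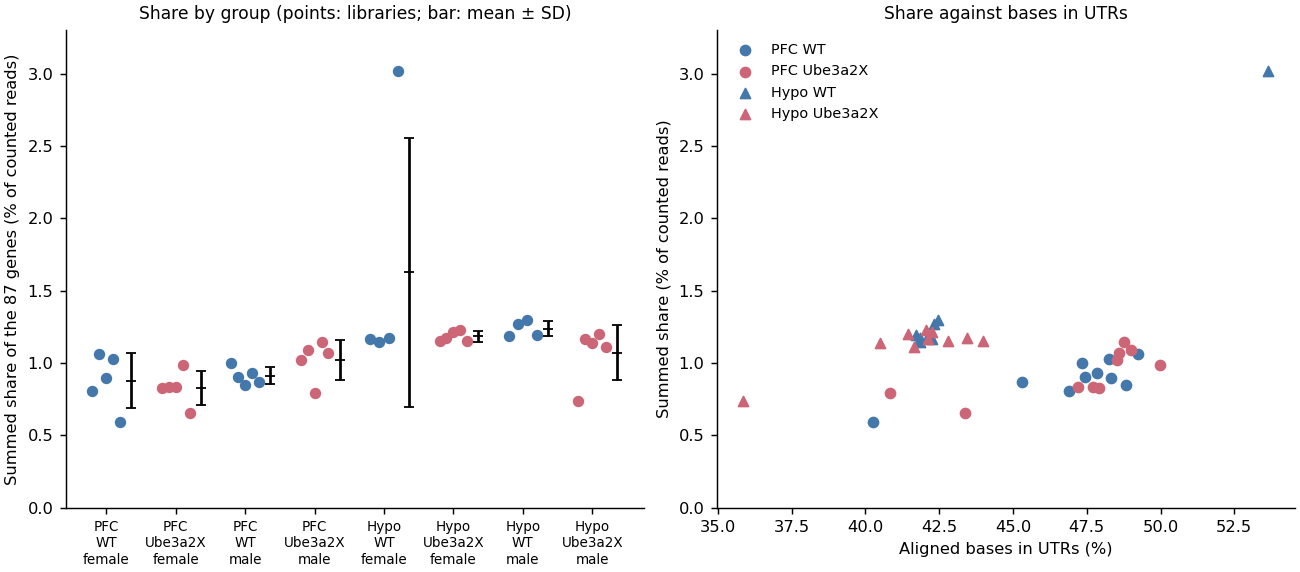
Summed share of the 87 ribosomal protein genes in percent of counted reads, by group on the left (points are libraries, bars the mean ± SD) and against the percent of aligned bases in untranslated regions on the right. Hypo WT female 471, at 3.019%, lies above the other 37 libraries in both plots.

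The share moved with where the aligned bases fell, as the authors' quality table gives them. Over the 18 hypothalamic libraries its Pearson correlation with the percent of bases in untranslated regions was 0.94 and with that in coding sequence -0.903, and over the 20 PFC libraries these values were 0.769 and -0.71. With the percent of ribosomal RNA bases it was 0.963 in the hypothalamus and 0.222 in the PFC, and with the median coefficient of variation (CV) of coverage along transcripts 0.735 and -0.582. The points share their library and its composition, so these are descriptions with no test. Without the 2 outlying libraries of each tissue the correlation with untranslated bases was 0.102 over 16 hypothalamic libraries and 0.568 over 18 PFC libraries, and that with coding bases 0.513 and -0.435, so that the hypothalamic values rest on those libraries. With ribosomal RNA bases it was then 0.525 and 0.238, and with the CV of coverage 0.308 and -0.292. Hypo WT female 471 had 53.7% of its bases in untranslated regions, 1.51% in ribosomal RNA, a median CV of coverage of 0.649 and 39048341 counted reads. Hypo Ube3a2X male 238 had 35.9% in untranslated regions and 9.52% in introns, and PFC Ube3a2X female 468 had a CV of 0.717.

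In Hypo WT female 471 all 80 members with enough reads lay above their hypothalamic median, by 0.40 (Rpl7l1) to 2.42 (Rpl36) on the log2 CPM scale, with a median of 1.41. In Hypo Ube3a2X male 238 the median was -0.72 and 1 of 80 lay above, in PFC WT female 397 the median was -0.64 and 1 lay above, and in PFC Ube3a2X female 468 it was -0.36 and 13 lay above. The whole family therefore shifted together in the first 3 of these libraries. In PFC Ube3a2X female 468 it split, since Rpl36 (-2.27) and Rplp1 (-1.86) lay below the median of the PFC, while Rpl30 (0.60) lay above it.

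**Figure D2:**
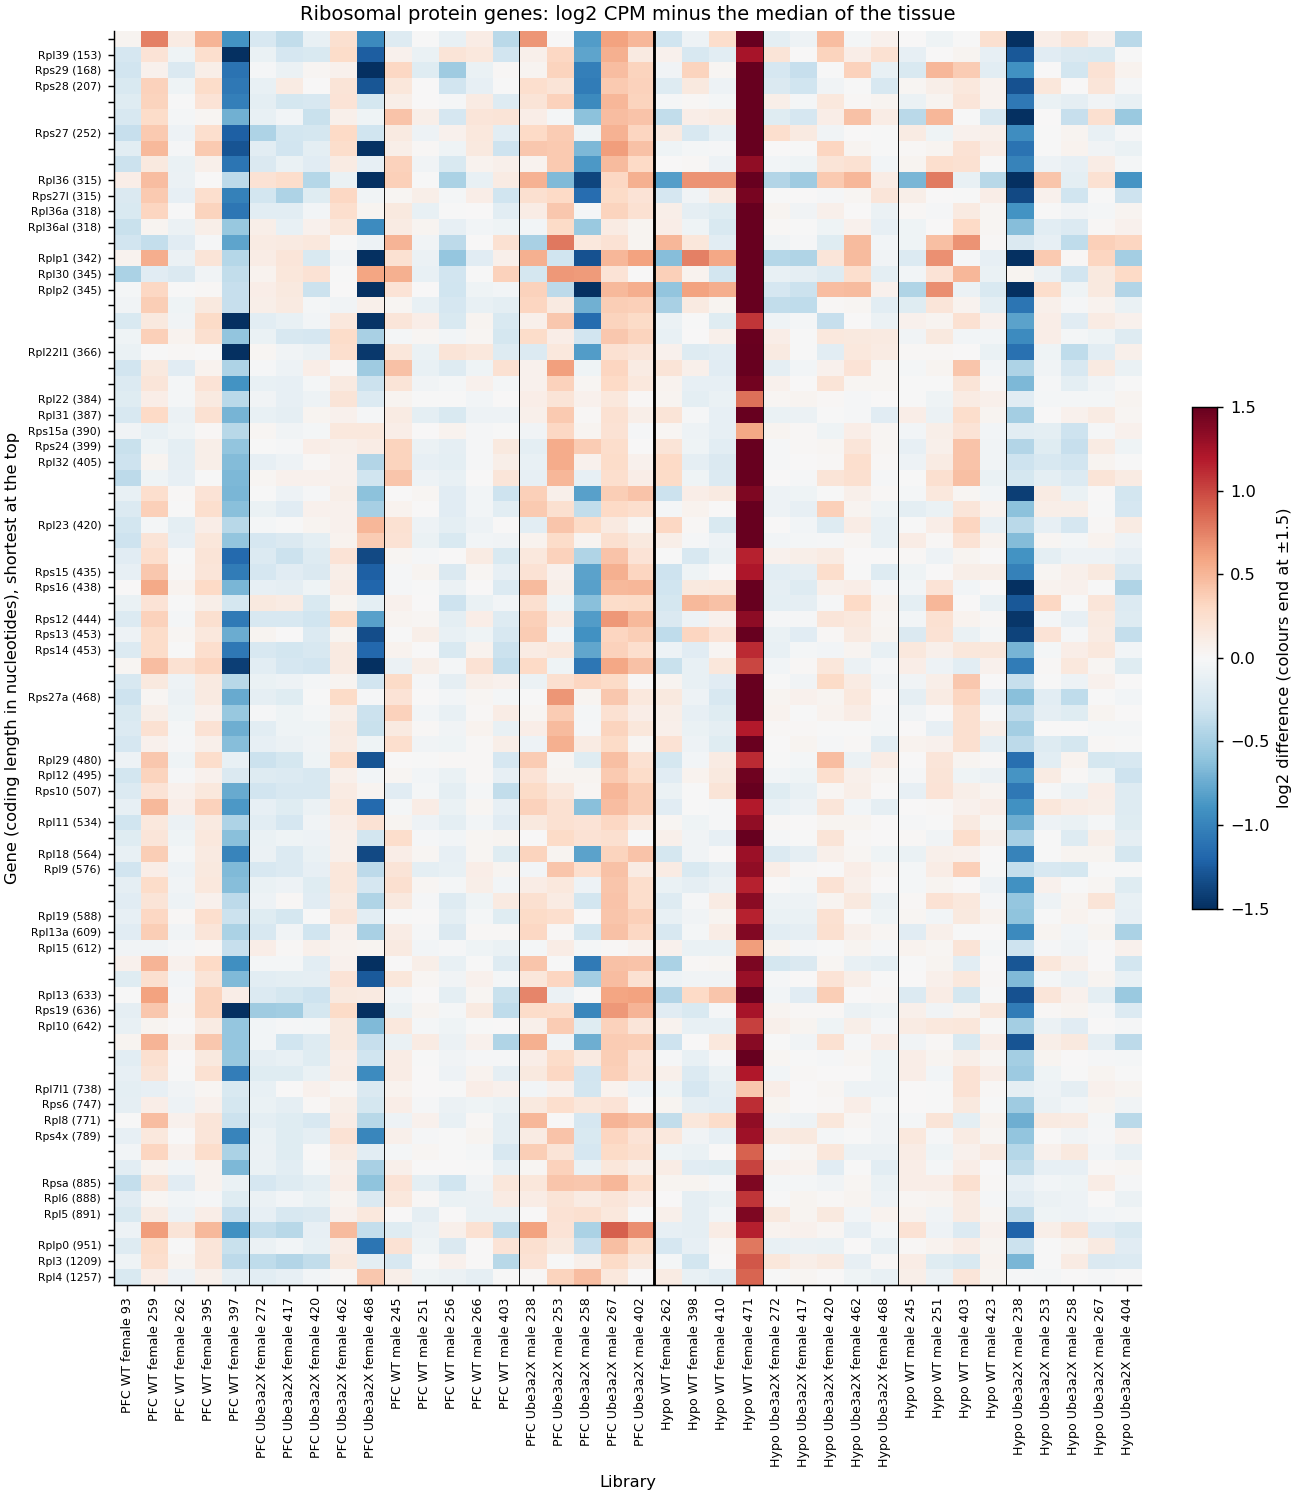
Difference of each member's log2 CPM from its median in the same tissue, for the 80 members with at least 100 reads in every library (rows, shortest coding sequence at the top) and the 38 libraries (columns, groups separated by lines). Symbols are given for genes named in the text. Red marks values above and blue values below the tissue median, and the column of Hypo WT female 471 is red for all 80 genes.

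The size of the shift went with coding length, and not in this family alone. In Hypo WT female 471 the median deviation was 1.72 for the 27 members with a coding sequence under 400 nucleotides, 1.43 for the 30 members of 400 to 600, and 1.20 for the 23 longer ones. Other protein-coding genes in the same library had medians of 1.01 (506 genes), 0.69 (838 genes) and -0.12 (10409 genes) in the same classes. The members had the larger median in each of the 3 classes, within which the lengths of members and other genes were not matched, and the difference was not tested. In Hypo Ube3a2X male 238 the order was mirrored, with -0.95, -0.72 and -0.53 for the members and -0.47, -0.27 and 0.07 for the others. PFC WT female 397 had -0.80, -0.66 and -0.47 for the members and -0.42, -0.26 and 0.01 for the others. PFC Ube3a2X male 258, outside the outlying libraries, had -0.67, -0.10 and -0.23 for the members and -0.38, -0.22 and 0.02 for the others.

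**Figure D3:**
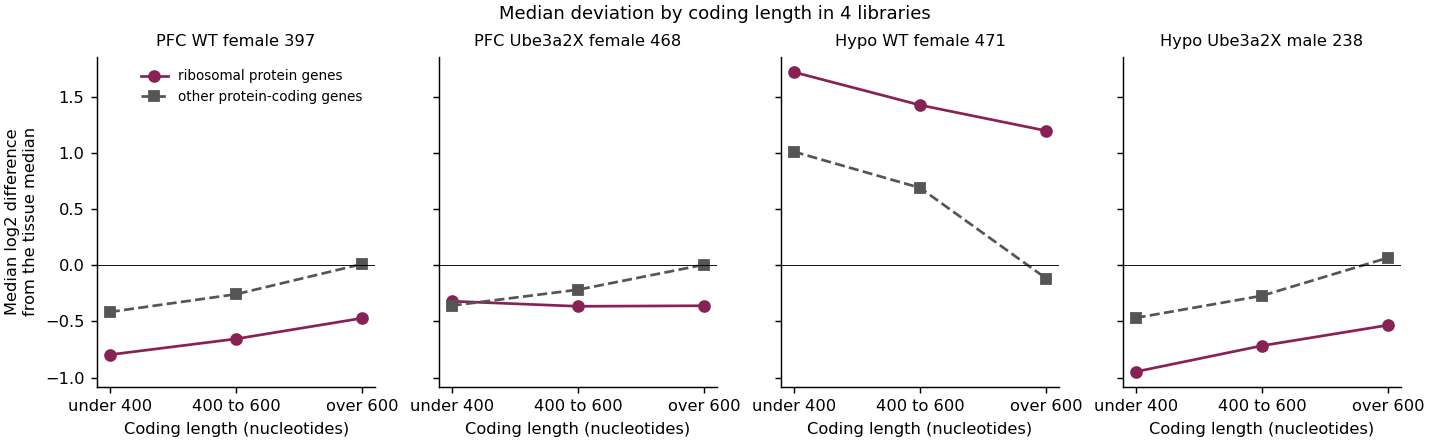
Median log2 difference from the tissue median in 3 classes of coding length, for the ribosomal protein genes and for the other protein-coding genes, in the 4 libraries with the outlying shares. The short classes lie farthest from 0 in both gene groups in 3 of the libraries, whereas the members in PFC Ube3a2X female 468 lie near -0.36 in every class.

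Markers of neighbouring tissue also set Hypo WT female 471 apart. The 5 pituitary markers summed to 4950 CPM there and to between 39.2 and 956 CPM in the other 17 hypothalamic libraries. 4 of the 5 were above every other library, led by Prl (3690 CPM) and Gh (1100 CPM), the genes for prolactin and growth hormone. All 3 ependymal markers and 6 of 7 hypothalamic neuropeptide genes were also at their highest there, as were the sums of the oligodendrocyte markers (5130 CPM), the blood markers (314 CPM) and the immediate early genes (195 CPM). The sums of the excitatory neuron (283 CPM), oligodendrocyte precursor (216 CPM) and choroid plexus markers (10.1 CPM) were at their lowest there. Within these 3 lists, 2 of 5, 3 of 4 and 2 of 4 genes lay below every other library. Olig1 (105 CPM) and Folr1 (1.29 CPM) lay above them, and Camk2a made up 276 of the 283 CPM. The astrocyte, microglial and endothelial lists were mixed, with 2, 2 and 3 genes above the compared libraries and 2, 1 and 2 below. In Hypo Ube3a2X male 238, which had the low share, the pituitary (39.2 CPM), ependymal (16.9 CPM), blood (53.7 CPM) and immediate early gene (27.4 CPM) sums were the lowest of the hypothalamus. The part of these markers in the ribosomal protein share of either library was not tested, nor was that of coding length in the marker sums.

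Across libraries the members moved together, and in the hypothalamus the degree again rested on the outlying libraries. The median Pearson correlation of log2 CPM over pairs of the 80 members was 0.666 in the PFC and 0.895 in the hypothalamus. Without the 2 outlying libraries it was 0.616 in the PFC and 0.253 in the hypothalamus, where 66.9% of pairs then lay above 0. All pairs share their libraries, so these are descriptions. In the PFC, Rpl30 (-0.0203), Rpl4 (0.0189) and Rpl23 (0.129) had the lowest median correlation with the other members.

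The first comparison asked how the members differed between the tissues. With all 38 libraries and RIN as a covariate, 26 of the 78 tested members (33.3%) passed the test, 24 of them lower and 2 higher in the PFC than in the hypothalamus, against 72.1% of all 10620 genes tested, 37.4% lower and 34.7% higher (edgeR's quasi-likelihood test, adjusted p under 0.05). Its median log2 fold change (PFC minus Hypo) was -0.29, against -0.04 over all genes. Small subunit genes passed in 14 of 31 cases, all lower, with a median of -0.43. Large subunit genes passed in 12 of 44 cases, 10 lower and 2 higher, with a median of -0.24, and none of the 3 P-stalk genes passed.

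These counts depended on the libraries, the covariates and the pairing. Leaving out Hypo WT female 471 gave 44 members, 41 lower and 3 higher, against 78.1% of all genes. Without RIN 46 passed, against 83.1%, and with RIN, the CV of coverage and the 5′ to 3′ bias also 46, against 68.1%. Without the 4 outlying libraries 34 of 74 members passed, 29 lower and 5 higher, against 79.6% of all genes, and the median was -0.16. All 26 members called with every library were called again, which is 100% of that list and 76.5% of the 34. Rpl5, Rpl12 and Rpl31 joined Rpl22 and Rpl29 among those higher in the PFC. With the mouse as a replicate block, in which only the 13 mice with both tissues inform the difference, 12 members passed, 1 higher (Rpl22) and 11 lower, against 43.4% of all genes, and all 12 were among the 26.

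**Figure D4:**
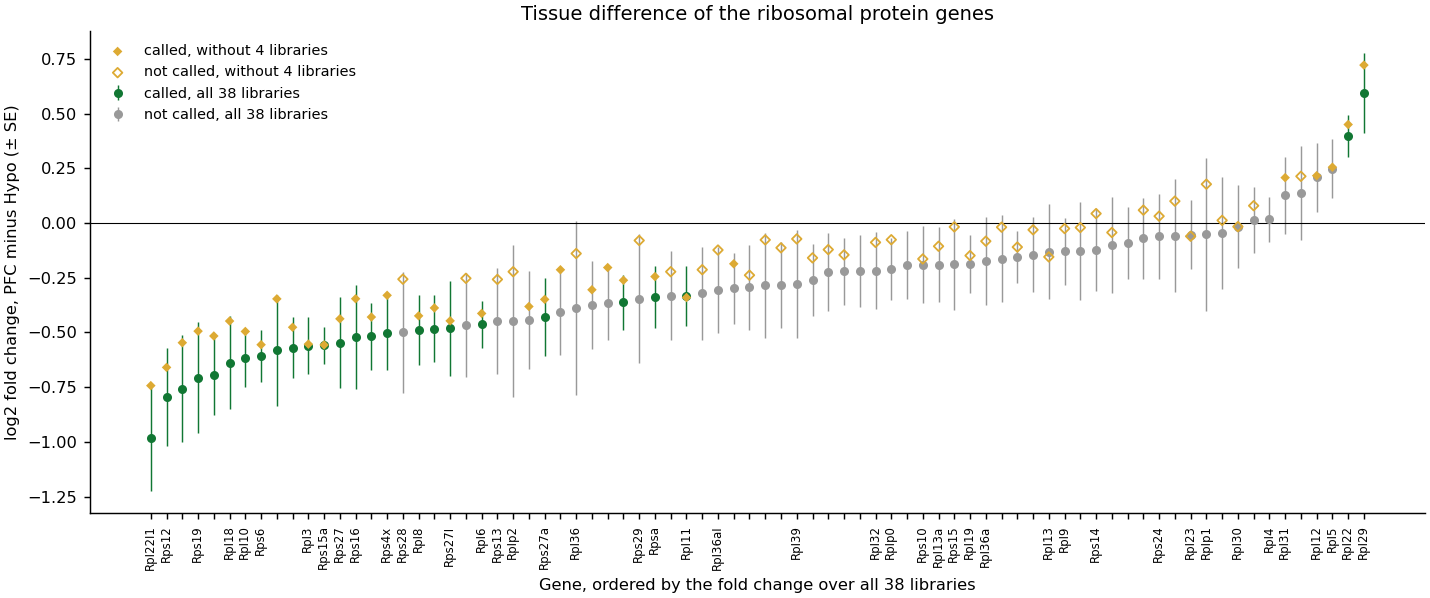
Log2 fold change between PFC and hypothalamus (PFC minus Hypo, ± SE) for the 78 tested members over all 38 libraries (circles, green where called) and without the 4 outlying libraries (diamonds, filled where called, drawn without an error bar), with symbols for genes named in the text. Most members lie below 0, and Rpl22 and Rpl29 are the only ones called above 0 with all libraries.

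Rpl22 and Rpl22l1 encode closely related large subunit proteins, and they differed in opposite directions. Rpl22 (chr4:152325742-152334071, plus strand) had a lowest, median and highest level of 57.6, 76.2 and 87.5 CPM in the PFC and 49.7, 56.0 and 99.0 CPM in the hypothalamus. Apart from Hypo WT female 471, which held the 99.0, all hypothalamic libraries were at or below 61.0 CPM and only PFC WT female 397 in the PFC lay below that. Rpl22 was higher in the PFC by 0.40 ± 0.10 (log2 fold change ± SE, adjusted p = 0.000455) and in 13 of the 13 mice with both tissues. Rpl22l1 (chr3:28805436-28807424, plus strand) had levels of 15.6, 46.3 and 55.2 CPM in the PFC and 34.2, 74.0 and 209 CPM in the hypothalamus. It was lower in the PFC (-0.98 ± 0.24 on the log2 scale, edgeR, adjusted p = 0.000535) and in 12 of 13 mice, the exception being the mouse of Hypo Ube3a2X male 238.

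Within a library, the ratio of Rpl22 to Rpl22l1 needs no scaling between libraries. It ran from 1.43 to 3.90 in the PFC (median 1.63) and from 0.473 to 1.45 in the hypothalamus (median 0.777), so that the tissues overlapped through the highest hypothalamic library, Hypo Ube3a2X male 238. Without the 4 outlying libraries the ranges were 1.43 to 3.07 and 0.673 to 0.961, well apart. Over the 51 fits of the tissue difference, Rpl22l1 was called in all 51, between -1.24 and -0.74, and Rpl22 in 50, between 0.21 and 0.45. Rpl22 missed the threshold when the CV of coverage and the 5′ to 3′ bias joined RIN as covariates (0.21, adjusted p = 0.0674). The ratio of Rps4x to Rps4l, a gene of few reads, ran from 93.1 to 277 in the PFC and from 21.1 to 92.5 in the hypothalamus, so that the tissues did not overlap. The ranges of the remaining pairs overlapped. Rps27 over Rps27l ran from 9.18 to 23.2 in the PFC and from 9.99 to 15.7 in the hypothalamus, and Rpl36a over Rpl36al from 1.06 to 2.99 and from 1.28 to 1.72.

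**Figure D5:**
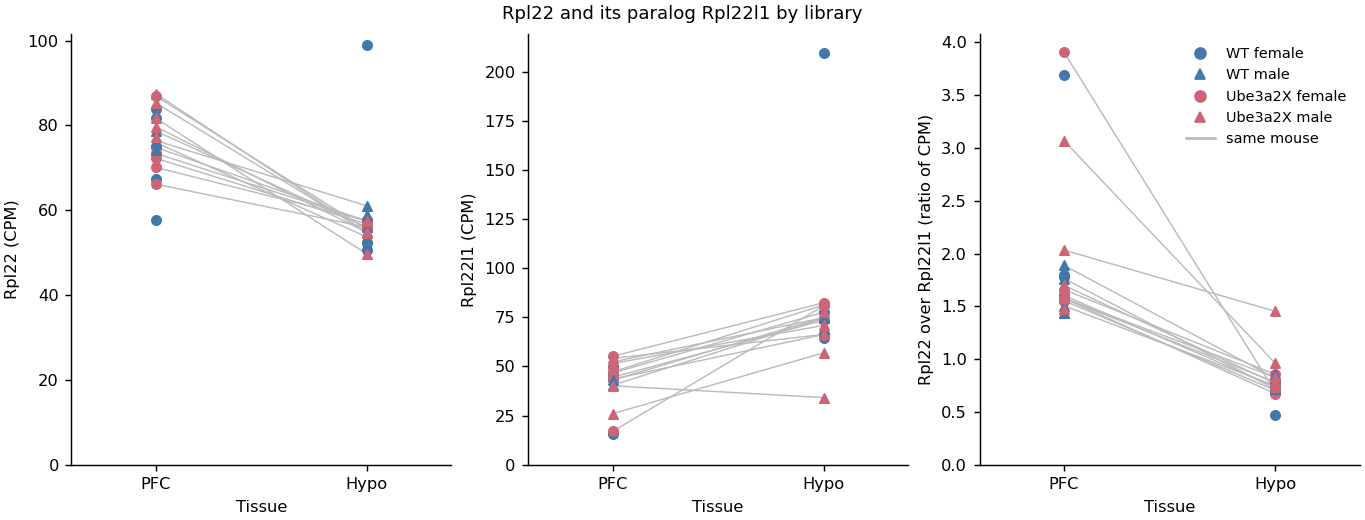
CPM of Rpl22, CPM of Rpl22l1 and the ratio of the first to the second in each library by tissue, with grey lines between the tissues of 1 mouse. The ratio is at or above 1.43 in every PFC library and at or below 1.45 in every hypothalamic library.

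Among the core small subunit proteins, Rps15a (chr7:118104372-118116188, minus strand) gave the smallest adjusted p. Its levels were 114, 152 and 189 CPM in the PFC and 185, 230 and 344 CPM in the hypothalamus (lowest, median, highest), and it was lower in the PFC in all 13 mice with both tissues. The tissues overlapped only through the highest PFC library and the lowest hypothalamic library. The difference was -0.56 ± 0.08 on the log2 scale (edgeR, adjusted p = 3.8e-07). Rps6, whose protein is the substrate of the S6 kinases, was at 70.7, 85.1 and 102 CPM in the PFC and at 87.3, 126 and 271 CPM in the hypothalamus. Its difference was -0.61 ± 0.12 (edgeR, adjusted p = 2.61e-05), and 12 of 13 mice showed it. Rps12 (-0.79 ± 0.22) and Rps19 (-0.71 ± 0.25), the latter known as a gene of Diamond-Blackfan anaemia, had larger differences with wider errors, and lost the call with the replicate block (adjusted p = 0.0818 and 0.117).

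Of the large subunit members, Rpl10 (chrX:74270812-74273135, plus strand), a protein added late in subunit maturation, was at 117, 186 and 242 CPM in the PFC and at 187, 266 and 543 CPM in the hypothalamus. Of the hypothalamic libraries, Hypo Ube3a2X male 238, at 187 CPM, and Hypo Ube3a2X male 258, at 237 CPM, lay within the PFC range. Rpl10 was lower in the PFC (-0.62 ± 0.13 on the log2 scale, edgeR, adjusted p = 0.000116), as were Rpl6 (-0.46 ± 0.11, adjusted p = 0.000231) and Rpl3 (-0.56 ± 0.13, adjusted p = 0.000263), the last of which was not called with the replicate block (adjusted p = 0.115). Rpl10, Rpl6, Rps15a, Rps6 and Rpl22l1 were called in all 51 fits. Rpl29, also known as a heparin-binding protein, was the other member higher in the PFC, at 4.93, 12.1 and 16.6 CPM against 3.28, 7.16 and 15.6 CPM, with a difference of 0.59 ± 0.18 (edgeR, adjusted p = 0.00449). It was not called with the replicate block (0.31, adjusted p = 0.52), although 12 of 13 mice had it higher in the PFC.

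Other members of the fixed roles followed. X-linked Rps4x was lower in the PFC (-0.50 on the log2 scale, edgeR, adjusted p = 0.00978). X-linked Rpl36a (-0.17) and Rpl39 (-0.28) did not pass. Rps27a, which is made as a fusion with ubiquitin, was lower (-0.43, adjusted p = 0.0305), and Rpsa, also known as a laminin receptor, was lower too (-0.34, adjusted p = 0.034). Rpl11, a regulator of the p53 ligase Mdm2, was lower (-0.33, adjusted p = 0.0307, 0.148 with the replicate block), and Rpl4 (0.02), Rpl13a (-0.19) and Rpl32 (-0.22) did not pass. Rps4l, annotated as a processed pseudogene, had too few reads for the main filter, with levels of 0.506 to 2.24 CPM in the PFC and 1.80 to 17.4 CPM in the hypothalamus. With edgeR's own expression filter it was tested and was lower in the PFC (-2.19 on the log2 scale, adjusted p = 1.04e-07). Its reads cannot be told from those of Rps4x where the sequences are alike.

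Markers of several cell types differed between the tissues as well. The 6 oligodendrocyte markers summed to 867 to 3100 CPM in the PFC and 2920 to 5130 CPM in the hypothalamus, the 6 microglial markers to 204 to 339 and 155 to 205 CPM, and the 5 excitatory neuron markers to 5260 to 10600 and 283 to 590 CPM. None of these lists was at 0 in either tissue, and their part in the differences of the members was not tested.

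Split by genotype, the tissue difference in WT mice was called for 47 of 78 members (60.3%), 45 lower and 2 higher in the PFC, against 69.1% of all genes (36% lower and 33.1% higher), with a median of -0.50. In Ube3a2X mice 10 members (12.8%) were called, 7 lower and 3 higher (Rpl22, Rpl29 and Rpl5), against 65.3% of all genes (33% lower and 32.3% higher), with a median of -0.08. The difference between these differences was tested as the tissue by genotype term, and no member passed (edgeR, limma-voom and DESeq2, 0% of all genes called). At an unadjusted p under 0.05 in edgeR there were 28 of 78, all with an estimate above 0, against 7.93% of all genes and 4.06% above 0. Its median over the members was 0.39 with all libraries and 0.02 without the 4 outlying ones. Without them, 35 of 74 members in WT and 26 in Ube3a2X mice passed, against 77.6 and 73% of all genes, of which 33 and 10 were among those called with all libraries. With the replicate block, 11 members in WT and 8 in Ube3a2X mice passed, against 38.9% of all genes in each. Of the 3 named as higher in Ube3a2X mice, Rpl22 kept its call with the block (edgeR, adjusted p = 0.0397). Rpl29 (0.26, adjusted p = 0.649) and Rpl5 (0.43, adjusted p = 0.0554) lost it.

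The tissue by sex term and the term for tissue by sex by genotype also gave 0 calls among the members in edgeR, limma-voom and DESeq2, against 0.0377 and 0% of all genes. At an unadjusted p under 0.05 there were 43 members in the first term, all with an estimate above 0, against 10% of all genes and 6% above 0, and 0 in the second, against 2.99%. The median of the tissue by sex term was 0.48 with all libraries and 0.07 without the 4 outlying ones. That of the 3-way term was -0.01 and 0.42.

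The study's own question concerned genotype and its interaction with sex within each tissue. In the PFC, with RIN and 2 surrogate variables as covariates, none of the 77 members passed for genotype over both sexes (edgeR, limma-voom and DESeq2), against 0.0183% of all 10900 genes. At an unadjusted p under 0.05 in edgeR there were 26, all higher in Ube3a2X, against 7.9% of all genes and 3.64% higher. The estimates nevertheless leaned 1 way, with 94.8% of members above 0 and 55.7% of all genes, and a median of 0.13 against 0.01. The lean depended on the covariates, since the median was 0.03 with RIN alone, and 0.07 without the 4 outlying libraries. The largest estimates were those of Rps10 (0.28) and, in the other direction, Rpl36 (-0.19), with a median SE of 0.0746 over the members.

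Within sexes in the PFC edgeR called 0 members. In males the median was 0.13 (19 of 77 at an unadjusted p under 0.05 against 18.3% of all genes, 0.0275% of all genes called), and in females 0.13 (14 of 77 against 14.6%, 0.00917% of all genes called). DESeq2 called Rpl19 (0.29 ± 0.07, adjusted p = 0.0131) and Rps10 (0.37 ± 0.11, adjusted p = 0.0406) in males, against 2.25% of all genes, and limma-voom called 0 in either sex. With RIN as the only covariate the median in females changed sign, to -0.13, while that in males was 0.15.

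The sex by genotype interaction in the PFC gave 0 calls (edgeR, 7 of 77 at an unadjusted p under 0.05 against 25.2% of all genes, 0 by limma-voom, 0% of all genes called), with estimates from -0.55 (Rpl22l1) to 0.67 (Rpl13). DESeq2 called Rpl13 (0.66 ± 0.22, adjusted p = 0.0385) and Rpl8 (0.36 ± 0.12, adjusted p = 0.043), 2 of 77 members, against 7.38% of all genes. Rpl13 stood at 76.9, 118, 76.4, 97.5 and 82.9 CPM in PFC WT females, 67.0, 64.6, 62.3, 85.5 and 85.3 CPM in Ube3a2X females, 75.1, 77.4, 70.1, 78.9 and 61.5 CPM in WT males, and 128, 73.0, 77.3, 116 and 117 CPM in Ube3a2X males. All 4 groups overlapped, and 3 of the 5 Ube3a2X males reached 116 CPM or more. In edgeR, leaving out PFC WT female 93 brought 6 members past the threshold (Rpl13, Rpl19, Rpl29, Rpl8, Rps16 and Rpsa) against 14.9% of all genes, leaving out PFC Ube3a2X male 253 brought 3 (Rpl13 and Rpl8 among them) against 9.56%, and leaving out PFC Ube3a2X female 462 brought 1 (Rpl29) against 9.57%. The paper itself reported many genes past its threshold for this interaction in the PFC, and followed some by qRT-PCR in separate mice. Its limma-voom fit held more genes, and it lists fewer WT mice than the PFC libraries used here. The reason for the different counts was not tested.

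Across the 77 members, the interaction estimates had a Spearman correlation of 0.555 with coding length and 0.494 with GC content. The correlations of the genotype estimates in females were -0.494 and -0.528. These are correlations across genes of the same libraries, which are not independent replicates.

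In the hypothalamus none of the 81 members passed for genotype (edgeR, 2 at an unadjusted p under 0.05 against 5.24% of all genes, 0 by limma-voom and DESeq2), against 0.00843% of all 11869 genes, and the median was -0.03. The value depended on the covariates. With RIN alone the median was -0.38 and 29 of 81 members had an unadjusted p under 0.05, against 6.81% of all genes, and without the 4 outlying libraries, with the surrogate variables, it was -0.02. By sex, RIN alone gave 19 of 81 members in females and 0 in males at that unadjusted p, against 5.29 and 2.47% of all genes. Hypo WT female 471, with its high share, is in the WT arm, and Hypo Ube3a2X male 238, with its low share, in the Ube3a2X arm. The median was -0.11 in males (6 of 81 at an unadjusted p under 0.05 against 9.2% of all genes, 0% of all genes called) and 0.05 in females (3 of 81 against 2.93%, 0.00843% of all genes called), with 0 members called in either sex by edgeR, limma-voom or DESeq2. The interaction had a median of -0.14 and 0 calls by the same tools (13 of 81 at an unadjusted p under 0.05 in edgeR against 6.9% of all genes, 0% of all genes called).

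For sex, none of the 77 members in the PFC passed (edgeR, 2 at an unadjusted p under 0.05 against 8.83% of all genes, 0 by limma-voom and DESeq2, 0.0917% of all genes called), nor did any of the 81 in the hypothalamus (edgeR, 3 at an unadjusted p under 0.05 against 17.8% of all genes, 0 by limma-voom, 2.3% of all genes called). Rplp0, the scaffold of the P-stalk, came closest in the hypothalamus. It stood at 99.4, 108, 119 and 205 CPM in WT females, 110, 111, 110, 119 and 110 CPM in Ube3a2X females, 120, 123, 128 and 121 CPM in WT males, and 94.7, 117, 121, 130 and 105 CPM in Ube3a2X males. The sexes overlapped, and the estimate (male minus female) was 0.13 with an adjusted p of 0.083 in edgeR and 0.0217 in DESeq2, which called 5.58% of all genes. Without the 4 outlying libraries 5 of 74 members passed, all higher in males (among them Rps28 at 0.23, Rps14 at 0.15 and Rplp0 at 0.15), against 6.99% of all genes. Leaving out Hypo Ube3a2X male 238 by itself gave the same 5 members, against 4.39% of all genes.

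RNA and coverage quality were then entered as terms of their own, each scaled to a unit SD, beside the 4 groups of sex and genotype and without surrogate variables, 1 tissue at a time. RIN gave 0 calls among the members in both tissues (edgeR, 3 of 77 in the PFC and 0 of 81 in the hypothalamus at an unadjusted p under 0.05, against 7.06 and 0.623% of all genes, 0 by limma-voom), against 0% of all genes in each. The CV of coverage gave 44 of 77 members in the PFC (57.1%), 41 of them lower at a higher CV and 3 higher (Rpl4, Rpl30 and Rpl23), against 58% of all genes (29.8% lower and 28.2% higher). In the hypothalamus it gave 46 of 81 members (56.8%), all higher at a higher CV, against 24% of all genes and 13.1% higher. The median estimate per SD was -0.15 in the PFC and 0.22 in the hypothalamus, and the difference between the tissues was not tested.

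The hypothalamic direction rested on Hypo WT female 471. Without that library the median was -0.12, and without the 4 outlying libraries 31 of 74 members passed, 19 higher and 12 lower, against 25.9% of all genes, with a median of 0.00. In the PFC the direction was kept without the 4 libraries, with 34 of 75 members lower and 4 higher, against 39.6% of all genes called, and a median of -0.11. In the PFC the smallest adjusted p were those of Rps13 (-0.41, adjusted p = 3.58e-07 in edgeR) and Rpl18 (adjusted p = 3.75e-06), and all 3 P-stalk genes were lower (-0.25 to -0.53 on the log2 scale).

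AT dropout, the share of reads missing from AT-rich sequence, was associated with 20 of 77 members in the PFC (26%), 15 higher and 5 lower at more dropout, against 42.5% of all genes (21.8% higher and 20.7% lower). The balance of directions rested on single libraries, since 32 were higher and 5 lower without PFC WT female 397, 3 higher and 5 lower without PFC Ube3a2X female 468, and 3 higher and 7 lower without PFC Ube3a2X male 258, against 52.9, 14.3 and 22.1% of all genes. With all libraries, all 3 P-stalk genes were among the higher ones and Rpl4, Rpl30, Rpl5, Rpl23 and Rps24 were the lower ones. The estimates had a Spearman correlation of 0.528 with the members' GC content. In the hypothalamus 0 of 81 passed (edgeR, 11 at an unadjusted p under 0.05 against 18.9% of all genes, 0 by limma-voom), against 3.95% of all genes, but without the 4 outlying libraries 34 of 74 passed, 20 higher and 14 lower, against 45.6% of all genes. The 5′ to 3′ bias was associated in the PFC with lower Rpl3 (edgeR, adjusted p = 0.0171) and no other of the 77 members, against 0.101% of all genes and 0.0459% lower, and with 0 of 81 members in the hypothalamus (edgeR, 28 at an unadjusted p under 0.05 against 16.9% of all genes, 0 by limma-voom, 0.0253% of all genes called).

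Other genes of translation were read from lists beside the members. Of 17 tested genes of translation factors and other TOP-type mRNAs, 3 were higher and 9 lower in the PFC than in the hypothalamus, a share near the 72.1% of all genes, with a median of -0.20. Among them Eef1a2 (0.53) and Pabpc1 (0.87) were higher, the first being the elongation factor form of neurons and muscle and the second the poly(A)-binding protein, and Eef1g (-0.55) and Npm1 (-0.48) were lower. Against the same 72.1%, 10 of 69 tested mitochondrial ribosomal protein genes were higher and 9 lower, with a median of 0.05, with Mrps17 (0.65) and Mrpl16 (0.46) higher and Mrps31 (-0.30) and Mrpl39 (-0.30) lower. Ribosome assembly genes gave 6 higher and 3 lower of 13, and the genes of cap binding and mTORC1 control 3 higher and 3 lower of 7, with Rps6kb1, an S6 kinase, higher by 0.70. In no genotype, sex or interaction test of either tissue was a gene of these lists called by edgeR.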

How the data were processed

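The authors aligned the reads to mm10 (GRCm38) with STAR, counted them per gene with featureCounts on Gencode v24 and deposited raw counts of 54165 genes in 38 libraries; versions, strand setting and treatment of reads with several matches are not given in the sources used here. The authors' deposited quality table gave RIN and AT dropout as scores, shares of aligned bases as fractions (printed here as percent), and the CV of coverage and 5′ to 3′ bias as ratios, from Picard tools. All 38 columns of counts were mapped to a sample, and 0 were left out. Gene coordinates and lengths were taken from the GRCm38 annotation Gencode vM21, which holds 53905 of the genes.

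From the counts, TMM-scaled CPM and edgeR's quasi-likelihood test were computed (edgeR 4.0.16, R 4.3.3). At the thresholds the study names, genes with under 100 reads in 2 or more libraries were removed, followed by the least variable 15% on the log2 CPM scale (prior count 2). This kept 10900 genes in the PFC and 11869 in the hypothalamus, fewer than the study kept. Tests within a tissue used sex, genotype, RIN and 2 surrogate variables (sva 3.50.0), and tests between tissues the 8 groups and RIN. p-values were adjusted over all genes tested by the Benjamini-Hochberg method, and an adjusted p under 0.05 counted as a call. The fits were tested on simulated counts with planted changes, drawn for each gene on its own. The simulation held no outlying library and no shift with coverage or length, so it does not cover those features of the data. The study's own tool, limma-voom (limma 3.58.1), was an alternative, as were DESeq2 1.42.0, other scalings, filters and covariates, and leaving out each library in turn. Leaving out the 4 libraries with the outlying shares was chosen after those shares had been seen. Replicates are separate mice.

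The members, the lists and the rule for named genes were chosen with earlier results of these data known. Named were members with a fixed role (P-stalk, X-linked, paralogs and their parents, and some well-studied proteins), up to 5 called members in each direction, taken by p, the highest and lowest 3 per kilobase, and 2 genes per direction of each other list. Members named because an alternative called them, or because of their value in 1 library, were chosen after their values were seen. The pairing of tissues by mouse comes from the mouse numbers of the labels. Over the 13 mice with both tissues, the deviations of the pair from their group means had a median correlation of -0.0561 (range -0.556 to 0.408). Values of some genes are not reported here.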

Additional observations from a re-analysis of the deposited data

Results flagged for a closer look

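The summed share of the ribosomal protein genes in Hypo WT female 471, 3.019% of counted reads, lay far from the other 3 libraries of its group, as judged by Dixon's test on the gap to the nearest library. The share in Hypo Ube3a2X male 238, 0.736%, lay far from the other 4 of its group by the same measure. No PFC library was set apart in its share by this test.

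Gene by gene, the same test was applied to the 81 members that reached 1 CPM. In Hypo WT females, 1 library stood apart for 61 members, each time 471, and in Hypo Ube3a2X males for 20 members, each time 238. In PFC Ube3a2X females this held for 15 members, of which 12 were set apart by 468, and in PFC Ube3a2X males for 7, each time 258. The counts were 2 in PFC WT females, 6 in PFC WT males, 10 in Hypo Ube3a2X females and 10 in Hypo WT males. Chance alone marks about 1 in 20 groups, and members of 1 library are not independent.

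PFC Ube3a2X male 258 also held the highest summed markers of excitatory neurons among the PFC libraries (10600 CPM), of astrocytes (2390 CPM), of oligodendrocyte precursors (248 CPM), of microglia (339 CPM), of choroid plexus (4.56 CPM) and of endothelium and mural cells (440 CPM), and 40.8% of its bases in untranslated regions. Only 1 of the 5 excitatory neuron genes lay above all compared PFC libraries, and the summed inhibitory neuron markers were the lowest of the PFC (696 CPM). The part of these values in the members' levels was not tested.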

How the results depend on the processing

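Of the counts of called members under the alternatives, 759 stayed within 1.5 times the main count and 35 did not. DESeq2 gave 2 calls for genotype in PFC males, 2 for the PFC interaction and 1 for sex in the hypothalamus, and 3 surrogate variables gave 1 for the last, each against 0. Without the 4 outlying libraries there were 5 for sex in the hypothalamus, 34 for AT dropout and 1 for 5′ to 3′ bias there, and 26 for the tissue difference in Ube3a2X mice; the cause was not tested. The tissue difference gave 46 calls without RIN, 46 with RIN, CV and bias, and 43 after correction for GC and length, and in Ube3a2X mice 17 without RIN and 24 after that correction, for which the cause was not tested. With the mouse as a replicate block the tissue difference gave 12 calls in edgeR and 29 in limma-voom with an estimated correlation, in WT mice 11 and 41, and in Ube3a2X mice 8 and 12. The pairing changed no count of the terms by genotype, sex or their interaction, which stayed at 0. Counts given without the share of all genes in the same fit do not by themselves set the members apart from other genes.

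With each library left out in turn, the counts ranged from 0 to 6 for the PFC interaction (6 without PFC WT female 93, 3 without PFC Ube3a2X male 253, 1 without PFC Ube3a2X female 462), from 0 to 3 for PFC bias (3 without 468, 0 without 272, 397, 403, 417 or 462), and from 8 to 37 for PFC AT dropout (37 without 397, 8 without 468, 10 without 258). For PFC bias, 0.579% of all genes passed without 468, and 0.0275 to 0.0642% without 272, 397, 403, 417 or 462. The counts ranged from 38 to 49 for PFC CV, from 0 to 5 for sex in the hypothalamus (5 without 238), from 22 to 80 for CV there (80 without 238, 22 without 410, 30 without 398) and from 0 to 10 for AT dropout there (10 without 471, 4 without 262). Of all genes, 59.9, 8.75 and 11.2% passed for CV in the hypothalamus without 238, 410 and 398. For AT dropout in the hypothalamus, 31.8 and 4.49% of all genes passed without 471 and 262. The tissue difference ranged from 18 (without Hypo WT male 423, whose RIN was 6.8) to 44 (without 471), in WT mice from 36 (without 423) to 59 and in Ube3a2X mice from 8 (without PFC Ube3a2X female 468 or Hypo WT male 423) to 26 (without Hypo 471). Without 471, 78.1% of all genes passed for the tissue difference and 72.2% for that in Ube3a2X mice. All other counts stayed at 0.

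Of 3574 values of single named members, 3402 kept direction and side of the threshold, 160 lost the call and 12 changed sign. The estimates for CV in the hypothalamus ranged, from without Hypo WT female 471 to without Hypo Ube3a2X male 238, from -0.0457 to 0.2636 for Rpl10, -0.0971 to 0.3095 for Rpl11, -0.1207 to 0.3754 for Rpl22l1, -0.102 to 0.4335 for Rpl36a, -0.0198 to 0.4349 for Rpl36al, -0.0055 to 0.2768 for Rpl7, -0.12 to 0.3949 for Rps27, -0.0517 to 0.3078 for Rps3, -0.0611 to 0.3103 for Rps4x, -0.0508 to 0.2876 for Rps6 and -0.0 to 0.3229 for Rpsa. With RIN, CV and bias, Rpl5 became -0.0366 in the tissue difference of Ube3a2X mice. Groups of 4 or 5 libraries limit the precision of every comparison.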
